A study of Mus musculus with 4 samples.

Results

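Arc, Npas4, Nr4a1, Nr4a2, Nr4a3, Homer1, Dusp1, Ier2, Btg2 and Nptx2 are genes that neurons switch on within minutes to hours of synaptic activity. These 10 genes, of the 21938 protein-coding genes of the annotation, were taken by name, and their promoters were described in lists of peaks of H3K4me3, the trimethylation of lysine 4 of histone H3 that marks active and poised promoters. A promoter was called marked when a peak came within 1000 bases of any annotated transcript start of the gene. Peaks up to 1000 bases apart were joined into domains, and the widest domain that met a gene's starts was taken as its promoter domain.

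Chromatin immunoprecipitation with sequencing (ChIP-seq) was carried out on the left cerebral cortex. The mice were B6CASTF1/J females 2 months of age, which are F1 hybrids between C57BL/6J and CAST/EiJ. The 2 groups were pool I, labelled biological replicate 2, and pool J, labelled biological replicate 1. Each was made of 4 cortex biosamples and sequenced as 2 technical replicate libraries. Neither group carried a treatment or a mutation in the labels, and all 4 libraries shared 1 donor record, so the labels do not show that the pools came from separate animals. The libraries of a pool were joined before peaks were called, which leaves 1 list for pool I, 1 for pool J and 1 list called replicated that was made from both pools. No test between the pools was therefore possible, the number of reads behind each list is unknown, and the 2 pool values are given as they are or as mean ± SD over 2 pools.

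Immediate-early genes are transcribed from preset promoters when calcium entry at synapses activates kinases and the transcription factors CREB, SRF and MEF2. Some of their products act at the synapse itself, others are transcription factors that start a later wave of genes, and others again shut the signal off. In cortex at rest most of these genes are expressed at a low level with short bursts, and many of their promoters are known to keep H3K4me3 between bursts. The Nr4a receptors are orphan nuclear receptors that are induced by cyclic AMP and calcium in neurons and bind DNA without a known natural hormone.

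The tissue label was checked with marker genes. All 6 markers of cortical neurons were marked, and all 6 had domains in the widest 5% of marked genes in the pool I, pool J and replicated lists. Tbr1, a transcription factor of deep-layer neurons, had 13246 bases in the replicated list. Markers of other cells of the cortex were marked at 9 of 10 genes, with a median of 2093 bases and P2ry12 unmarked in the replicated list. The widest were Slc1a2 of astrocytes with 6748, Cldn5 of endothelium with 4433 and Gad1 of inhibitory neurons with 4306 bases. Their enrichments were 20.0, 5.65 and 6.91, and the median over the 9 marked genes was 5.65. Of 7 markers of other brain regions, En1 and En2 were marked with low enrichments of 3.36 and 5.54, and Irx1, Nkx2-1, Hoxa5, Hoxb4 and Ttr were not. Low enrichment alone did not set En1 and En2 apart from the markers of other cells of the cortex. The replicated list held 25446 peaks, pool I 24508 and pool J 21573.

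The promoter sequences are shown first because 7 of 8 windows shared a short element, an order chosen after the counts were seen. The genes were taken by name, as genes induced by activity. CREB acts on such genes, so the presence of its element is not independent of that choice. RefSeq promoter windows on GRCm38.p6, the mm10 sequence, from 250 bases before to 50 bases after a start, were at hand for 7 of the 10 genes, with 2 windows for Homer1. Arc, Ier2 and Nptx2 had no entry. The motif TGACG, the core of the cyclic AMP response element to which CREB binds, was searched on both strands. It lay in 7 of these 8 windows, against 20.8% of the 32851 windows of the table and 29.8% of the 14209 windows of marked genes. The exception was the downstream Homer1 window. The stretches below end before the nearest annotated exon of the gene, and capitals mark TGACG or its complement CGTCA, with overlapping matches run together.
Nr4a1, chr15:101266596-101266845, plus strand: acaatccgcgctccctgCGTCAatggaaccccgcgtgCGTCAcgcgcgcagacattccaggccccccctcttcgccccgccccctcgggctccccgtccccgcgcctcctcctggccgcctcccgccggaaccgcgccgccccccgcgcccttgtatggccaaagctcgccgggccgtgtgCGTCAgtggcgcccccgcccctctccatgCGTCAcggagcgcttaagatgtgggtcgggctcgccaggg
Nr4a2, chr2:57124004-57124253, minus strand: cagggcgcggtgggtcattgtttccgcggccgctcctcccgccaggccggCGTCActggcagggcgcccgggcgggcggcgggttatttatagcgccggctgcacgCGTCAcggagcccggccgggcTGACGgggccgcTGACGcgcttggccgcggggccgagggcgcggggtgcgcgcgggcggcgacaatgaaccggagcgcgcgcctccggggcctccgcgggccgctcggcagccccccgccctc
Nr4a3, chr4:48045055-48045152, plus strand: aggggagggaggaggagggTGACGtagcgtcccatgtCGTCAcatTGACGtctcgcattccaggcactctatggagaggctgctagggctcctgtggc
Homer1, chr13:93303507-93303756, plus strand: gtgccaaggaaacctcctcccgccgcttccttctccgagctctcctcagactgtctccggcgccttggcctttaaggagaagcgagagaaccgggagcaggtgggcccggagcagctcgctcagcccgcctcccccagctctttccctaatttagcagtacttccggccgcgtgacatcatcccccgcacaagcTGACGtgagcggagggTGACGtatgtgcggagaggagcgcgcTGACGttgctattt
Dusp1, chr17:26508520-26508722, minus strand: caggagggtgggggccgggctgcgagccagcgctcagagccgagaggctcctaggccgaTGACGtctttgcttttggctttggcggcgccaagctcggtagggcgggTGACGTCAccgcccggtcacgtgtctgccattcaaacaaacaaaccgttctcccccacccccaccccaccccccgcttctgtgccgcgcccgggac
Btg2, chr1:134079156-134079405, minus strand: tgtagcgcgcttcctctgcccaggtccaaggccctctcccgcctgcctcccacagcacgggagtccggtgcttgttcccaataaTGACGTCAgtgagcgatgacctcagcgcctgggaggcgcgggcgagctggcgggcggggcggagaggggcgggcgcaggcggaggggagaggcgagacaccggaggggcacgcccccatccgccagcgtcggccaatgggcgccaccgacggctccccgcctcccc

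Each of the 3 Nr4a windows held 4 copies of TGACG in the 250 bases before the start, and Homer1 held 3. Npas4, whose window lies inside an annotated exon and is not printed, held 2. The Nr4a1 window is at an internal start of the gene, in its widest domain. The Nr4a2 window is at the 5′ start, not in the widest domain of that gene. The whole palindrome TGACGTCA, which contains TGACG on both strands, was found at Dusp1 from 143 to 136 bases before the start and at Btg2 from 166 to 159 bases before it. That was 2 of 8 windows, against 1.79% of all windows and 2.99% of those of marked genes. GGGCGG, the GC box, was in 6 of 8 windows, against 35.7% of all windows and 62.4% of those of marked genes. The TATA box letters TATAAA and the MEF2 site, overlapping each other at Nr4a2, were in 1 of 8 windows each, against 13.6% and 3.19% of all windows and 7.01% and 1.51% of those of marked genes. The AP-1 site TGANTCA, the serum response element core and the NGFI-B response element AAAGGTCA were in none of the 8, against 7.81%, 1.63% and 1.51% of all windows and 4.79%, 1.29% and 0.908% of those of marked genes. A match is a string of letters and says nothing about binding. The observed-to-expected CpG ratio of the 8 windows had a median of 0.870, against 0.384 over the table. The table includes windows of unmarked genes. The ratio over windows of marked genes alone was not taken, so this contrast is not particular to these genes. TGACG itself holds a CpG, and the share of TGACG at matched CpG content was not tested.

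All 10 genes were marked in every list, against 65.2% of protein-coding genes in the replicated list, 64.8% in pool I and 63.9% in pool J. Their promoter domains were wide. The median was 5487.5 bases in pool I, 5174 in pool J and 5516.5 in the replicated list, against 2193.5 in pool I, 2026 in pool J and 2124 in the replicated list over all marked genes. Domains in the widest 5% of marked genes, here called broad, started at 5302 bases in pool I, 4745 in pool J and 5166 in the replicated list. Homer1, Nr4a3, Npas4, Dusp1 and Ier2 were broad in all 3 lists, which made 5 of 10 genes in the replicated list (background 5.0%), 5 in pool I (background 5.01%) and, with Nr4a1, 6 in pool J (background 5.0%). All 10 were above the 75th percentile of width in the replicated list.

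The peaks were wide but not tall. The enrichment, a value the authors gave each peak and taken here as fold over control, had a median of 21.0 over the strongest peaks of the 10 genes in the replicated list, against 20.6 over all marked genes. It was above the median of all marked genes for 6 of the 10 in the replicated list. Within pool I 8 of 10 were above that list's median and within pool J 4 of 10. By width the order in the replicated list was Homer1, Nr4a3, Npas4, Dusp1, Ier2, Nr4a1, Arc, Nr4a2, Btg2 and Nptx2. Neighbours whose pool values overlapped were Homer1 and Nr4a3, Npas4 and Dusp1, Arc and Nr4a2, and Btg2 and Nptx2. In whole tissue, fewer cells with a mark and less of the mark per cell cannot be told apart.

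**Figure D1:**
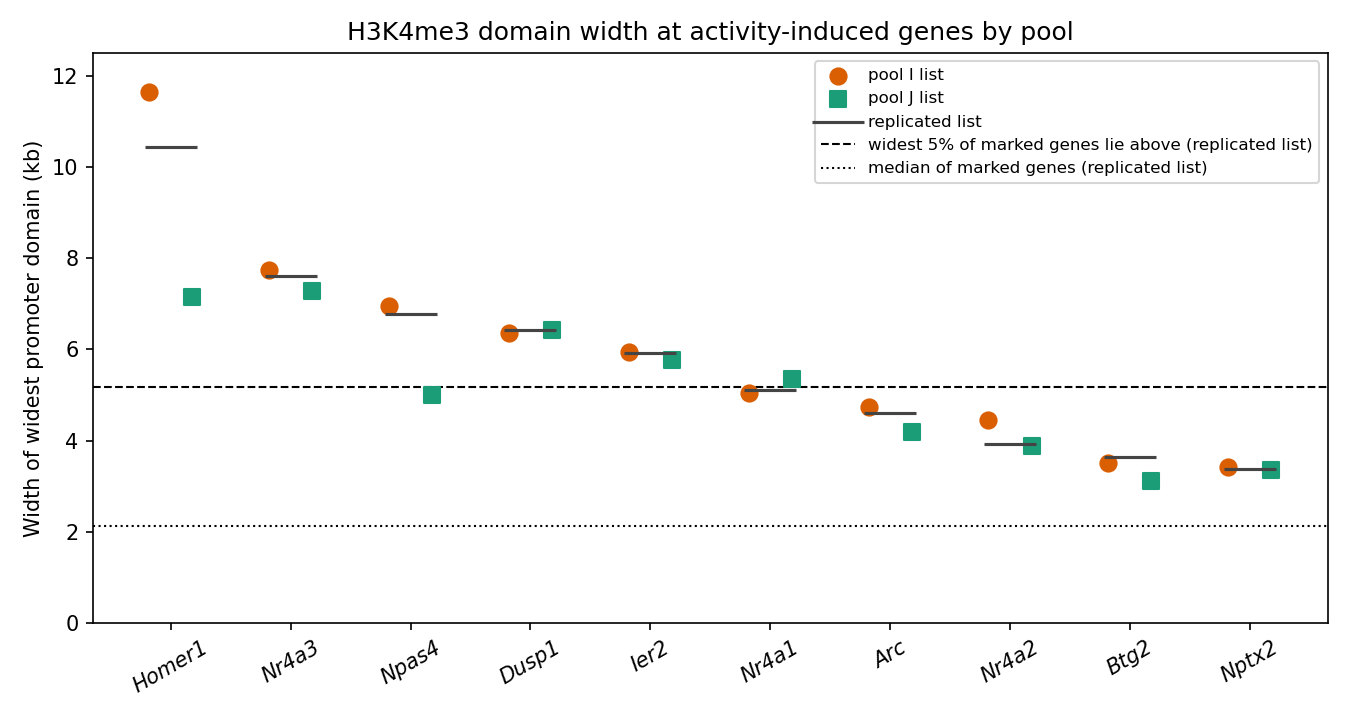
Width of the widest promoter domain (kb) of each of the 10 genes in the pool I list (circles), the pool J list (squares) and the replicated list (bars), widest first. The dashed line is the lower limit of the widest 5% of marked genes and the dotted line their median, both in the replicated list. All 10 genes lie above the median line, 5 bars lie above the dashed line, and the pools stand furthest apart at Homer1.

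Among the synaptic effectors, Homer1 had the widest domain, and in pool I and the replicated list it was the widest of all 10 genes. Homer1 encodes a postsynaptic scaffold that links metabotropic glutamate receptors to calcium stores, and its short activity-induced form, Homer1a, uncouples that scaffold. Its domain measured 11636 bases in pool I, 7142 in pool J and 10439 in the replicated list (chr13:93302719-93313157), a pool mean of 9389 ± 3178 bases (SD, n = 2 pools). It was wider than 99.8% of marked genes in pool I and 99.0% in pool J. Its enrichment was 29.3 in pool I, 30.3 in pool J and 30.8 in the replicated list, the highest of the 10 genes in each. The domain reached from 2440 bases before the start of the principal transcript to 7998 bases after it, where it ended in intron 1 of a transcript of 9 exons.

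The Homer1 domain was a strong core with weak peaks behind it. The strongest peak was 9512 bases wide in pool I, 7142 in pool J and 7232 in the replicated list. In the replicated list 4 more peaks of 272 to 1382 bases followed it downstream with enrichments of 2.83 to 4.09. Pool I had 3 such peaks of 2.48 to 3.72, and pool J had none within reach. The pool I domain was 1.63 times as wide as the pool J domain. That ratio was 1.33 between single peaks, 1.42 with the −log10 q limit set at 5 and 1.11 with joining up to 2500 bases, all under the limit of 1.5 used below.

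Arc encodes a capsid-like protein that is made at dendrites and drives the removal of AMPA receptors from the synapse. Its domain was 4732 bases wide in pool I, 4178 in pool J and 4610 in the replicated list (chr15:74668863-74673472), with a pool mean of 4455 ± 392 bases (SD, n = 2 pools). Enrichment was 18.2 in pool I, 17.8 in pool J and 17.3 in the replicated list, below the median of marked genes in each. The domain held the whole gene of 3488 bases in all 3 lists. It started 902 bases before the gene and ended 220 bases past its end.

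Nptx2, also called Narp, encodes a secreted pentraxin that gathers AMPA receptors on inhibitory interneurons. Its domain had 3418 bases in pool I, 3355 in pool J and 3382 in the replicated list (chr5:144545437-144548818), a pool mean of 3386.5 ± 44.5 bases (SD, n = 2 pools). It was the narrowest of the 10 in pool I and the replicated list, and Btg2 with 3122 bases was narrower in pool J. Its enrichment of 12.9 in pool I, 12.2 in pool J and 11.9 in the replicated list was the lowest of the 10 in each list. Both pools placed it at much the same position, sharing 97.6% of the pool I domain and 99.4% of the pool J domain. It was 1 peak that ended in intron 2 of 5 exons.

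Among the transcription factors, Npas4 carried the mark over most of its length but not at the start of its coding transcript. Npas4 is a neuron-restricted basic helix-loop-helix factor that is induced by calcium and controls inhibitory synapses. Its domain was 6951 bases wide in pool I, 4991 in pool J and 6772 in the replicated list (chr19:4984440-4991211), with a pool mean of 5971 ± 1386 bases (SD, n = 2 pools). Enrichment was 23.4 in pool I, 17.3 in pool J and 21.2 in the replicated list. The domain covered 100% of the gene of 5962 bases in pool I, 83.7% in pool J and 98.6% in the replicated list, where it ended in the untranslated part of the last of 8 exons.

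The start of the coding transcript Npas4-201 lay in no peak of any list, while the other two annotated starts, of a retained-intron model and a nonsense-mediated decay model, lay in a peak in all 3 lists. In the replicated list the Npas4-201 start fell in a gap of 455 bases between a main peak of 5027 bases and an upstream peak of 744 bases, and in pool I in a gap of 441 bases. In pool J there was no upstream peak and the domain ended before it. The RefSeq start lies 345 bases downstream of the Npas4-201 start, at the start of the retained-intron model, and was in a peak in all 3 lists. The 2 annotations thus differ on whether the start of Npas4 was in a peak. Of the 250 bases before the RefSeq start, 53 were in a peak in pool I, 6 in pool J and 41 in the replicated list. In the other 7 windows these bases were wholly in peaks in all 3. A start of the principal transcript outside every peak was found in 1 of 10 genes, against 7.42% of marked genes.

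Nr4a3 (Nor1) had the widest domain of the receptors, 1 unbroken peak in every list. It measured 7752 bases in pool I, 7279 in pool J and 7599 in the replicated list (chr4:48041576-48049174), a pool mean of 7515.5 ± 334 bases (SD, n = 2 pools). Enrichment was 21.4 in pool I, 22.2 in pool J and 19.2 in the replicated list. The domain was nearly even about the start, with 3577 bases before it and 4021 after it, and ended in intron 2 of 8 exons. Its highest point was 2091 bases upstream of the nearest annotated start in the replicated list, 2115 in pool I and 2108 in pool J. For the other 9 genes the highest point in the replicated list lay 124 to 213 bases downstream of a start, and the median over marked genes was 129 bases downstream.

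Nr4a1 (Nur77) and Nr4a2 (Nurr1) each carried the mark at an upstream and at an internal start, and at both genes the internal domain was the wider. Nr4a1 is the family member most used as a marker of recent cell stimulation. Its internal domain measured 5042 bases in pool I, 5357 in pool J and 5102 in the replicated list (chr15:101266077-101271178), with a pool mean of 5199.5 ± 223 bases (SD, n = 2 pools). Enrichment there was 20.8 in pool I, 15.8 in pool J and 20.7 in the replicated list. The start at the 5′ end of the gene lies 12577 bases upstream, and its own domain measured 3295 bases in pool I, 3461 in pool J and 3323 in the replicated list. Its enrichment was 21.4 in pool I, 18.7 in pool J and 18.6 in the replicated list. At 5102 bases, Nr4a1 lay just under the broad limit of 5166 bases in the replicated list.

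Nr4a2 is needed for midbrain dopamine neurons and is also induced by activity in cortex and hippocampus. Its internal domain was 4458 bases wide in pool I, 3871 in pool J and 3916 in the replicated list (chr2:57113779-57117694), with a pool mean of 4164.5 ± 415 bases (SD, n = 2 pools). The domain of its 5′ start, 8965 bases upstream, measured 1624 bases in pool I, 1553 in pool J and 1659 in the replicated list. Both were strong. The 5′ domain had an enrichment of 25.6 in pool I, 25.4 in pool J and 26.2 in the replicated list, and the internal one 21.9 in pool I, 23.9 in pool J and 25.4 in the replicated list. The internal domain reached 2656 bases before its start and 1259 bases after it, against the direction seen at most genes.

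Among the genes of feedback, Dusp1 had a domain that ran past both ends of its usual transcript. Dusp1 encodes a nuclear phosphatase that switches off MAP kinases. Its domain was 6362 bases wide in pool I, 6422 in pool J and 6425 in the replicated list (chr17:26502817-26509241), with a pool mean of 6392 ± 42.4 bases (SD, n = 2 pools), the smallest spread of the 10. Enrichment was 21.8 in pool I, 19.9 in pool J and 18.8 in the replicated list. The main peak of 4196 bases in the replicated list covered the whole of the principal transcript, Dusp1-202, which spans 2930 bases. A weaker peak of 1438 bases with an enrichment of 4.17 lay 791 bases further downstream and took the domain 2773 bases past the transcript end. Without joining, Dusp1 measured 4196 bases and was not broad. A lincRNA, AC122252.2, has its start in that downstream peak.

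Ier2 is a short single-exon gene whose protein acts as a nuclear regulator of immediate-early response. Its domain was 5933 bases wide in pool I, 5775 in pool J and 5931 in the replicated list (chr8:84660100-84666030), a pool mean of 5854 ± 112 bases (SD, n = 2 pools). Enrichment was 23.6 in pool I, 22.6 in pool J and 23.2 in the replicated list. The domain was 3.90 times the length of the gene of 1522 bases, the highest such ratio of the 10, and ran 1231 bases past its end. It extended 3178 bases upstream, where the lincRNA Gm26664 starts on the opposite strand 2276 bases from the Ier2 start. In pool J and the replicated list both starts lay in 1 peak. In pool I they lay in separate peaks, 3709 bases wide with an enrichment of 23.6 at Ier2 and 2118 bases wide with 19.95 at Gm26664. The pool I broad call rests on joining these peaks, as the Ier2 peak alone is under the limit of 5302 bases. The domain, and its ratio to gene length, cannot be assigned to Ier2 alone. With joining up to 2500 bases Ier2 was no longer broad.

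Btg2 encodes an antiproliferative protein that recruits the deadenylase complex to messenger RNA. Its domain measured 3498 bases in pool I, 3122 in pool J and 3639 in the replicated list (chr1:134076043-134079681), a pool mean of 3310 ± 266 bases (SD, n = 2 pools). Enrichment was 22.7 in pool I, 20.3 in pool J and 22.4 in the replicated list. The domain covered 74.2% of the gene of 3951 bases in pool I, 64.8% in pool J and 77.9% in the replicated list, and ended in the untranslated part of exon 2 of 2. It was among the narrower domains of the group but still at percentile 84.8 of marked genes.

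**Figure D2:**
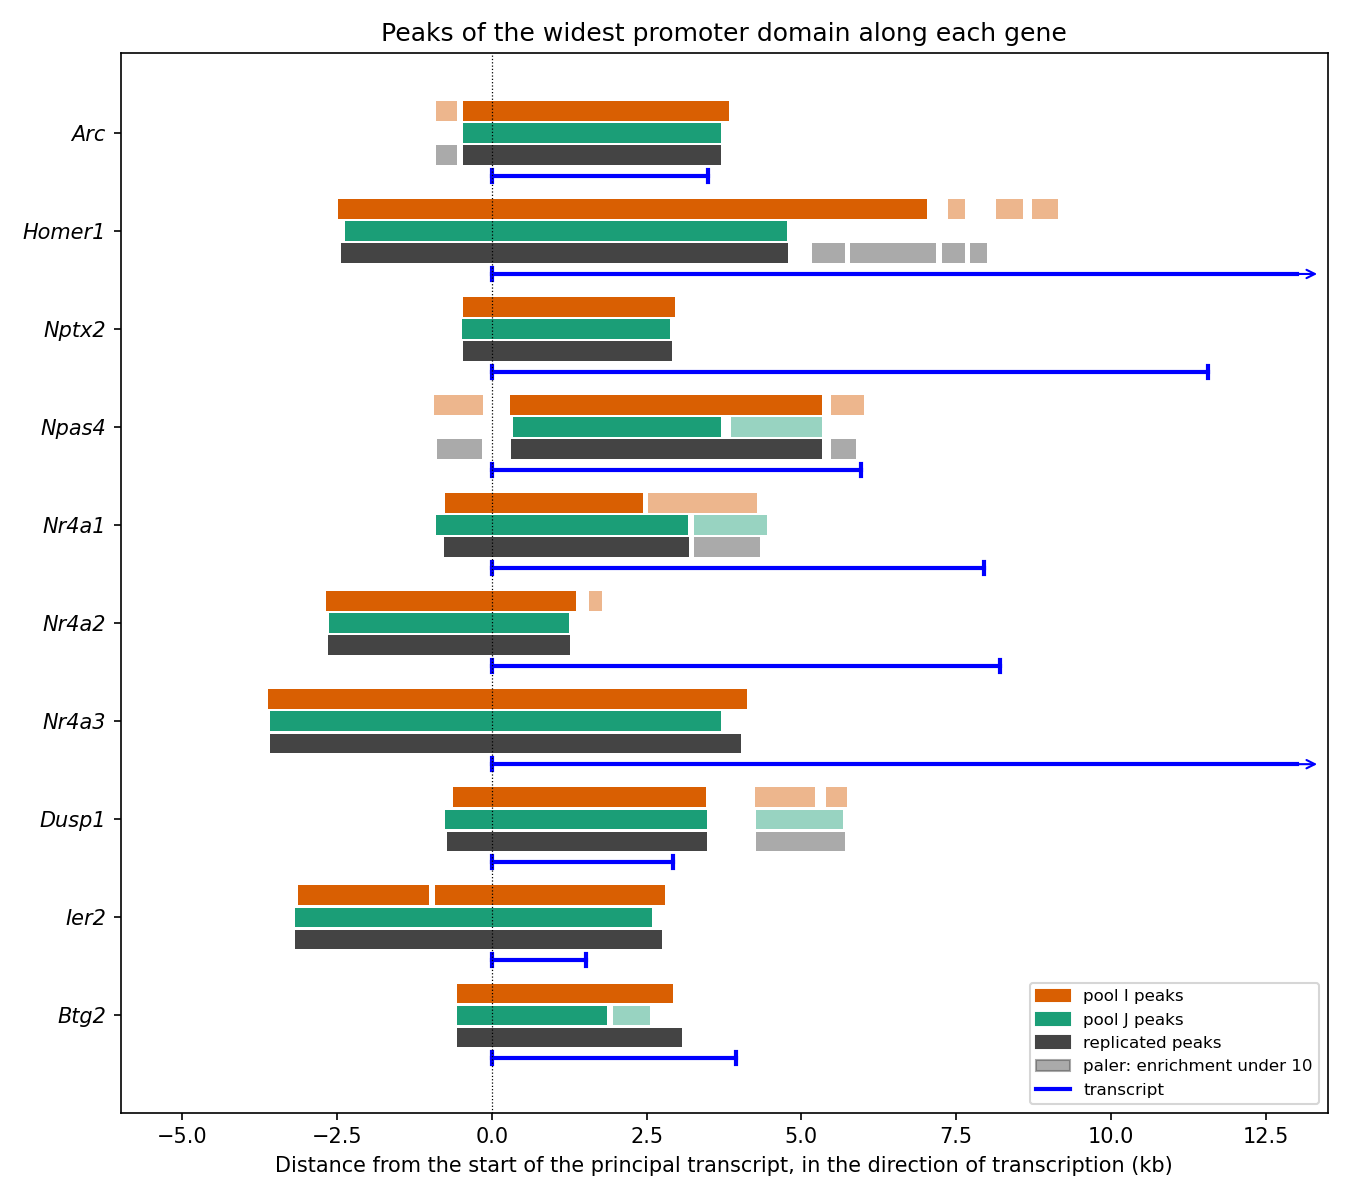
Peaks of the widest promoter domain of each gene, drawn from the start of the principal transcript in the direction of transcription (kb), with pool I above pool J above the replicated list. Paler bars are peaks of enrichment under 10, and the blue line is the transcript, with an arrow where it runs off the plot. The domains of Arc, Dusp1 and Ier2 pass the end of the transcript in all 3 lists and that of Npas4 in pool I, and the gap at the start of Npas4 is seen in the pool I and replicated rows.

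Set against gene length, the domains were long. The whole annotated gene lay inside the domain for Arc and Ier2, 2 of 10 genes, against 2.01% of marked genes. Among genes of up to 10 kb it was 2 of 4, against 8.49%, and the other pair were Npas4 at 98.6% and Btg2 at 77.9%. Dusp1 counts as a gene of 56539 bases because of an annotated start 53609 bases upstream of its usual one. Measured on the principal transcript, a choice made after these lengths were seen, whole coverage held for Arc, Dusp1 and Ier2, 3 of 10, against 2.29%. It was 3 of the 7 with a span of up to 10 kb, against 8.68%.

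All 10 genes were wider than the median of marked genes in their own decile of gene length, and 8 were in the top 10% of it, the exceptions being Btg2 and Nptx2. By decile of transcript span it was 7, with Nr4a2 at percentile 89.5 a further exception. Of the 250 marked genes no longer than Ier2, 12 others had a domain as wide. For Npas4 it was 30 of 1939 genes and for Arc 64 of 951. On transcript span, 14 of 923 genes no longer than Dusp1 matched it. Domains extended further downstream than upstream of the start at 8 of 10 genes, close to the 82.3% of all marked genes, with Nr4a2 and Ier2 the exceptions.

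**Figure D3:**
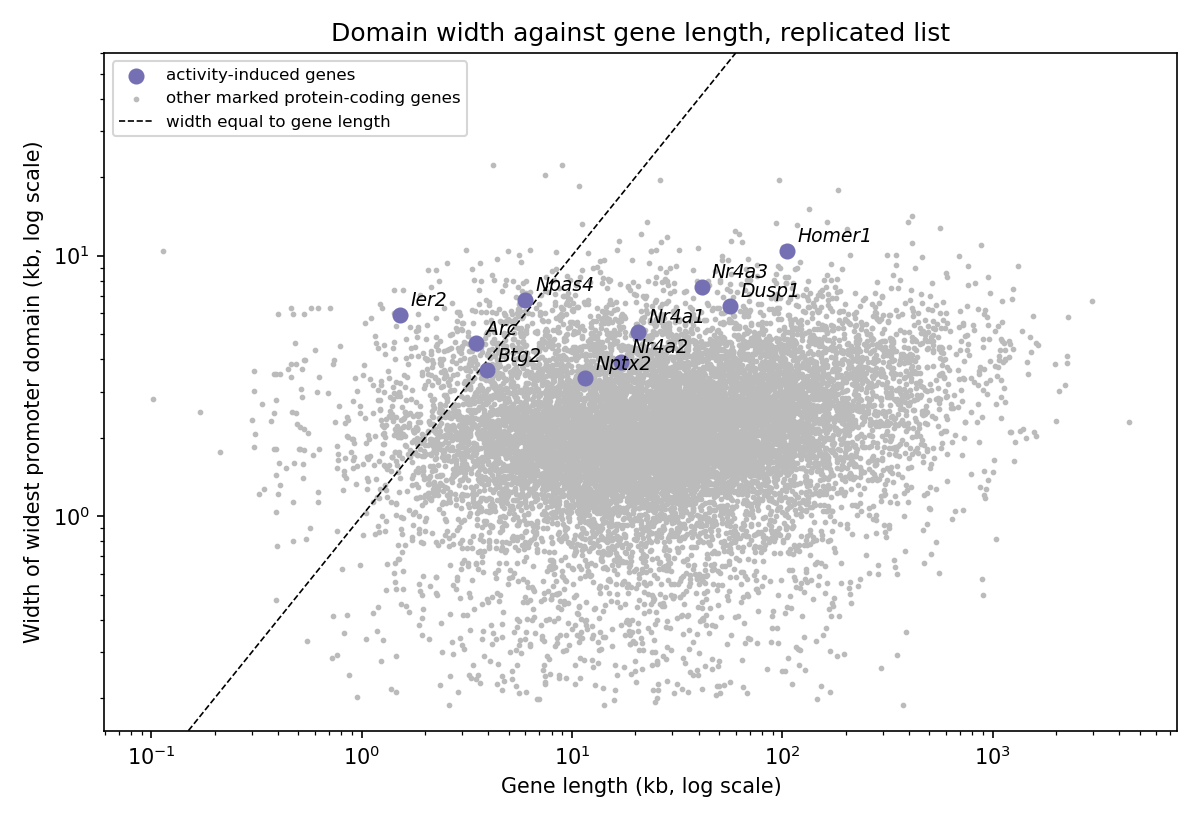
Width of the widest promoter domain (kb, log scale) against gene length (kb, log scale) in the replicated list for the 10 genes (large points, named) and the other marked protein-coding genes (small points). Points above the dashed line have a domain longer than the gene, which holds for Ier2, Arc and Npas4. All 10 genes lie in the upper part of the cloud at their own length.

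The genes outside the group most like Arc and Ier2 were taken as the 5 of up to 10 kb with the widest domains that held the whole gene. Of these, Pou3f3 had 20385, Ankrd34a 10543 and Bhlhe40 10496 bases. Each of these domains was shared with another annotated gene or genes. Bhlhe40, a basic helix-loop-helix repressor of the clock, measured 8329 bases in pool I and 8085 in pool J. Widths in the pool lists were likewise smaller than in the replicated list for Ankrd34a, at 10146 in pool I and 7623 in pool J.

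The width in pool I over that in pool J ran between 0.941 at Nr4a1 and 1.63 at Homer1, with a median of 1.09, against 1.07 over the 13961 genes marked in both pools. On the log2 scale Homer1 was at 0.70, Npas4 at 0.48 and Nr4a2 at 0.20. Pool I was the wider at 8 of 10 genes, against 76.6% of genes marked in both pools, and pool J at Nr4a1 and Dusp1. The difference passed 1.5-fold for 1 of 10, Homer1, against 4.78% of genes, and stayed within 1.1-fold for 5 of 10, against 54.3%. Enrichment ratios ran between 0.916 and 1.35 with a median of 1.05, against 1.02 over all genes. At Npas4 the width ratio was 1.39. The stretch of its main peak, 5050 bases wide in pool I, was covered in pool J by a pair of peaks 148 bases apart and 4991 bases from end to end. Pool I had further weak peaks of 546 and 782 bases on either side that pool J lacked. The pool I list held 24508 peaks and the pool J list 21573, and the part of this in the widths was not tested.

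**Figure D4:**
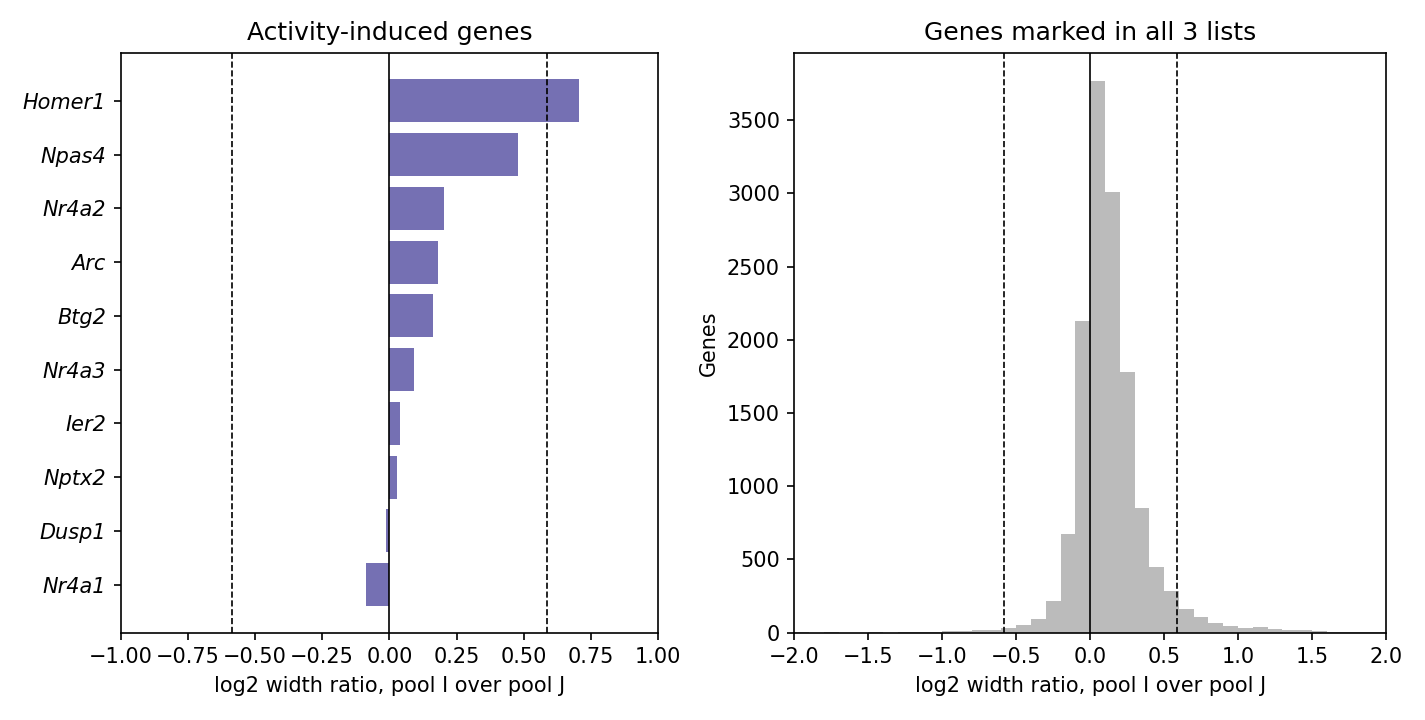
Left, log2 ratio of domain width in pool I over pool J for the 10 genes. Right, the number of genes at each log2 ratio among the 13960 genes marked in all 3 lists. Dashed lines are the 1.5-fold limits in both panels. Homer1 at 0.70 passes the upper limit, and the other 9 genes lie between the limits.

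The 10 genes have 35 annotated starts, of which 30 lay in a peak in pool I, 29 in pool J and 30 in the replicated list. Over all starts of marked genes the share in a peak was 62.5% in pool I, 62.3% in pool J and 62.5% in the replicated list. Homer1 gave 9 of the starts in a peak in each list, all in 1 domain. Dusp1 gave 6, of which 2 lay at the peak shared with Ergic1, described below. Starts of a gene are therefore not separate observations, and the count leans on genes with many starts. A promoter domain apart from the widest was found at 4 of 10 genes, Nr4a1, Nr4a2, Nr4a3 and Dusp1, against 9.45% of marked genes. The Nr4a1 and Nr4a2 pairs are given above. At Nr4a3 the further domain was a weak peak near an internal start, with 696 bases and an enrichment of 3.99 in pool I, none in pool J, and 658 bases and 3.34 in the replicated list. At Dusp1 it lay at the distant upstream starts and measured 2786 bases in pool I, 2647 in pool J and 2678 in the replicated list. That peak also held a start of Ergic1, a gene of the early secretory pathway on the opposite strand, so it cannot be assigned to Dusp1.

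Homer1 had 10 starts, of which 9 lay in its domain in all 3 lists and the most upstream, of a processed transcript, met no peak. The domain also held the start of Gm47075, a model of uncertain status in the annotation. The start of a retained-intron model of Nr4a1 was unmarked in all 3 lists. Arc, with 2 starts that lie 2 bases apart, and Ier2, Btg2 and Nptx2, with 1 start each, had a single promoter domain.

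Peaks away from every annotated start, within 50 kb of the gene and outside its own domains, were found at 7 of the 10 genes, against 37.0% of protein-coding genes. There were 16 in the replicated list, of which 14 were met by a peak in pool I, 10 in pool J and 9 in both. Their median width was 645.5 bases and their median enrichment 4.17, against 496 bases and 3.87 over the 7982 distal peaks of the list. Nr4a3, Homer1 and Nptx2 had none. Dusp1 counted only through a peak of 274 bases inside Ergic1 that pool J lacked. That peak was centred 88070 bases from the usual start of Dusp1 and came within 50 kb because of the distant upstream start. Some of the peaks of Nr4a1, Ier2 and Btg2 also lay inside other genes. Longer genes have more room for such peaks, and the count was not adjusted for gene length. The 10 genes had a median length of 14375.5 bases, against 25592 over marked genes. The 37.0% is over all protein-coding genes, marked or not, and the share among marked genes alone was not taken.

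The strongest lay 7059 bases upstream of the 5′ end of Nr4a1 (chr15:101245842-101247210). It was 1369 bases wide with an enrichment of 14.2 in pool I, 16.7 in pool J and 15.9 in the replicated list. Of the 16 it alone had an enrichment above 10. A second peak upstream of Nr4a1 (chr15:101240848-101241614) had 7.86 in pool I, 8.37 in pool J and 8.57 in the replicated list. Btg2 had a pair, 1 centred 14016 bases upstream with 8.62 in pool I, 6.15 in pool J and 7.00 in the replicated list, and 1 centred 18016 bases downstream with 6.87 in pool I, 7.13 in pool J and 6.55 in the replicated list.

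Arc had 1 distal peak (chr15:74679342-74679879), 538 bases wide and centred 7040 bases upstream of its start. Its enrichment was 4.37 in pool I, 5.36 in pool J and 4.63 in the replicated list. An enhancer of Arc that responds to synaptic activity is known from mouse in the region upstream of the gene, and whether this peak overlaps it was not tested. Both pools listed the peak. Npas4 also had an upstream peak in both pools, 247 bases wide, with 4.33 in pool I, 3.58 in pool J and 3.99 in the replicated list.

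Other activity-regulated genes gave a scale for these values. Of 30 further rapid genes, 29 were marked and 8 were broad in the replicated list, with a median width of 4479 bases. The 3 widest were Dusp6, a phosphatase of ERK, with 8052 bases, Per1 of the clock with 7513, and the AP-1 factor Fosl2 with 6941, and Amigo3 was unmarked. Of 24 late genes, 21 were marked in pool I, 20 in pool J and 22 in the replicated list. In the replicated list 5 were broad, with a median of 3028.5 bases and a lowest width of 217. The widest were Nptx1 with 6998, Nrn1 with 6824 and Rasgrp1 with 6157 bases, and Cort and Mmp9 were unmarked. The lists were read against 65.2% marked and 5.0% broad over all genes, and their medians against 5516.5 bases for the 10 genes and 2124 for all marked genes.

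Relatives of the 10 genes did not all share their width. Nptx1 and the pentraxin receptor Nptxr, with 6998 and 7664 bases, were wider than Nptx2 with 3382. Homer2 with 2219 and Homer3 with 1472 bases were narrower than Homer1 with 10439. Of the Btg and Tob family, Btg1 with 6752, Tob1 with 6461 and Tob2 with 5560 bases were wider than Btg2 with 3639, Btg3 had 2136 bases and Btg4 was unmarked. Among the phosphatases, Dusp6 with 8052 bases was wider than Dusp1 with 6425, while Dusp4 had 5589, Dusp8 4722, Dusp5 4229 and Dusp2 1330. Ier3 and Ier5 had 3312 and 3932 bases, against 5931 for Ier2.

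The relatives and partner of Npas4 were mostly narrower than its 6772 bases, with 2148 at Npas1, 4445 at Npas2 and 3190 at the partner Arnt2. Npas3 was the exception at 7830 bases in the replicated list, but measured 3329 in pool I and 2893 in pool J. Over the 20 relatives, 19 were marked and 8 broad in the replicated list, with a median of 4445 bases. This stands against 65.2% marked over all genes and 5.0% broad over marked genes. In each pool list 19 were marked and 7 broad. Dusp5, Dusp6, Ier3 and Ier5 were also among the rapid genes and Nptx1 among the late genes, so the lists are not separate.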

How the data were processed

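The authors deposited peak lists on mm10, per the labels: 1 list for pool I, 1 for pool J, 1 on the reads of both pools together, and 1 termed replicated. The aligner and peak caller were not given in the sources used here. Pool lists were matched to pools by the deposited text files, which trace both libraries of a pool to 1 alignment. Of the 25446 replicated peaks, 24595 had the position and value of a pooled-reads peak, so most replicated widths are those of pooled reads. The deposited enrichment is a ratio, taken as fold over control. The deposited −log10 q was used as a filter in alternatives, and the deposited −log10 p and display score (at most 1000) were not used.

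Gene models were GENCODE M21, without mitochondrial genes. Peaks met a window by at least 1 base. The principal transcript is the annotated principal or longest one starting at the widest domain. Older symbols were matched through RefSeq synonyms. Genes named were the 10 genes, genes sharing their domains, the listed relatives, the 3 widest and all unmarked genes of each list, and the 5 similar short genes, of which a few are not reported here. These members and lists were chosen with earlier results of these data known. Distal peaks named individually were chosen after their values were seen. The joining and window steps were tested on simulated data. Sequences are from RefSeq on GRCm38.p6. Python 3.11.15 with pandas 2.3.3, numpy 2.4.6 and matplotlib 3.10.9 was used. No p-value was computed, as there was 1 list per pool. Alternatives varied the window, the joining distance, the q filter, the starts and the list.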

Additional observations from a re-analysis of the deposited data

How the results depend on the processing

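All 10 genes stayed marked under every alternative except use of the 5′-most start only, which left 9, without Homer1. That setting also gave 3 broad genes (Ier2, Npas4, Nr4a3), a median width of 3639 bases, and widths of 3323 at Nr4a1, 1659 at Nr4a2 and 2678 at Dusp1. Under it 61.6% of all genes were marked, 4.99% of marked genes were broad and the median over marked genes was 2093 bases. The broad count was otherwise 4 to 6, and 7 with the widest 10% called broad. The median width was 4185.5 bases without joining, 5270.5 with a −log10 q of at least 5, 4601 with at least 10, and 5174 to 5487.5 in the single pool lists. Over all marked genes it was 1977 bases without joining, 2109 and 2114 at those q limits, and 2026 to 2193.5 in the pools. Whole-gene coverage held for 2 or 3 genes under all, against 1.53% to 2.49% of marked genes. The count past 1.5-fold between pools was 0 with joining up to 2500 bases, with −log10 q of at least 5 and with the 5′-most start. Over all genes marked in both pools the shares there were 5.58%, 4.06% and 4.66%. The count was 1 without joining (Ier2) and with −log10 q of at least 10 (Dusp1), against 6.24% and 3.54%. The gene concerned was therefore not the same. Motif counts were unchanged with the 250 bases before the start only. The cause of these shifts was not tested. No paired analysis was possible because the technical replicate numbers shared by the pools have no list of their own. The reads behind each list are unknown, so weak peaks in 1 pool alone cannot be read as a difference.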
